A study of Mus musculus with 2 samples.

Results

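The genes described here are 40 listed genes of 2 linked stress responses, measured in mouse liver that lacked the membrane-anchored metalloproteinase MMP-14 and in wild-type liver. The list names 24 genes of protein folding in the endoplasmic reticulum (ER), from Hspa5 to Ero1lb, and 16 genes of the amino acid response driven by the transcription factor ATF4, from Atf4 to Nupr1. They were taken by name from 16387 named genes, with no threshold on their values, but the list was chosen with earlier results of these data known. The shares of all genes given beside them below are therefore description only. All but Phgdh were matched to the array, so 39 were measured, each by 1 probe. Ero1l and Ero1lb are now called Ero1a and Ero1b.

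Proteins that enter the ER are folded there by chaperones and disulphide isomerases, and misfolded proteins are sent back to the cytosol to be degraded. When folding capacity falls short, the sensors IRE1, ATF6 and PERK raise the output of chaperone genes and lower protein synthesis. PERK shares its last step with other kinases that sense amino acid shortage: they phosphorylate eIF2-alpha, and translation of ATF4 then increases the output of genes for amino acid synthesis and import. Hepatocytes secrete most plasma proteins and keep a large ER for it.

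Each of the 2 arrays was read in 2 colours and set MMP-14 knockout RNA (Cy3) against wild-type RNA (Cy5), per the labels. The E14 Dlk+ array carried RNA of 100000 cells per genotype, sorted from fetal liver as positive for Dlk and negative for CD45, CD71 and Ter119 and derived from 3 livers per genotype; the sample labels say day 14 and the design text day 14.5. The P1 liver array carried whole-liver RNA mixed from 2 livers per genotype, which the labels place at postnatal day 1 and the design text at embryonic day 18.5. The strain, the knockout allele and the sex of the animals are not given in the sources used here.

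There was 1 array per comparison and no dye swap, so the spread between animals is unknown, no test was possible, and genotype and dye cannot be told apart. Every log2 ratio below is knockout over wild type after normexp background correction and loess normalisation, and every fold threshold refers to these values, unless another setting is named. A channel was called detectable above the mean plus 2 SD of the blank spots, with the wild-type threshold at 44.3 and the knockout threshold at 85.1 on the E14 array, and at 50.5 and 87.0 on the P1 array. The knockout channel was the brighter one for the median probe, by a factor of 2.09 on the E14 array and 1.65 on the P1 array. Signals are given below with the wild-type reading first and the knockout reading next, in scanner units. As a measure of technical spread, probes of the same gene differed with a pooled SD of 0.12 and 0.22 log2 units, over 139 genes on each array.

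The targeted gene and the tissue markers frame these values. Mmp14 read 131 and 132 on the E14 array, a ratio of -1.13, and 161 and 104 on the P1 array, a ratio of -1.30; the sources used here do not give which exons its probe reads. Dlk1 read 4971 and 11869 in the sorted cells, and 11 of 11 measured hepatoblast and hepatocyte markers were detectable in every channel of both arrays. On the P1 array, 12 of 12 lung epithelium markers were detectable in the wild-type channel and 7 of 12 in the knockout channel, and their summed signal above blank was 42439 against 219; Sftpb, Scgb3a2, Lamp3, Nkx2-1 and Cldn18 were not detectable in the knockout. On the E14 array, stellate, fibroblast and smooth muscle markers had summed signals of 7092 and 23948, and 3 of 12 were at least 1.5-fold higher (10 under median centring in place of loess). Of all genes 0.307% were higher and 0.22% lower by that measure on this array (24.8% and 0.0394% under median centring). Of the hepatoblast and hepatocyte markers 7 of 11 were at least 1.5-fold lower there (2 under median centring), but 6 of these 7 have whole-number readings, which occur only among the brightest spots, and of the 5 markers without such a reading 1 was lower. The P1 array had 6 of 11 hepatocyte markers lower by that measure, all 6 with whole-number readings, and 5 of 11 above 0; of the 4 without such a reading 0 were lower. Markers of other cells were lower by 1.5-fold or more there in 5 of 8 endothelial, 4 of 7 erythroid and 4 of 12 stellate and fibroblast cases. Of all P1 genes 4.12% were lower by that measure. Plasma cells also have a large ER. The summed signals of B and plasma cell markers, not scaled between channels, were 921 and 1118 on that array. After loess these markers had a median of -0.08, with 5 of 6 below 0, and under median centring a median of 0.01. The part of these markers and of the other marker lists, lung epithelium among them, in the results below was not tested. In whole liver and in sorted cells alike, fewer cells of a type, less RNA per cell and RNA of other tissue in a sample cannot be told apart.

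In the whole liver labelled P1, many ER chaperone genes were lower in the knockout. The wild-type channel of that array also carried the lung epithelium signal given above, and its part in these values was not tested. Of the 24 members of the ER chaperone arm, all detectable in both channels, 9 were lower by 1.5-fold or more and 0 were higher by as much. Among all 12715 named genes with both channels detectable, 4.12% were lower and 2.84% higher by that measure. At the 2-fold threshold the arm had 7 lower members, against 1.45% of all genes. The median log2 ratio of the arm was -0.50, with 17 members below 0 and 7 above (16 and 8 under median centring), and the median of all genes was -0.00. The authors' deposited table has 11 members lower by 1.5-fold or more, against 12.2% of all genes, 4 lower by 2-fold or more, against 5.03%, and 1 higher by 1.5-fold or more, against 11.9%.

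**Figure D1:**
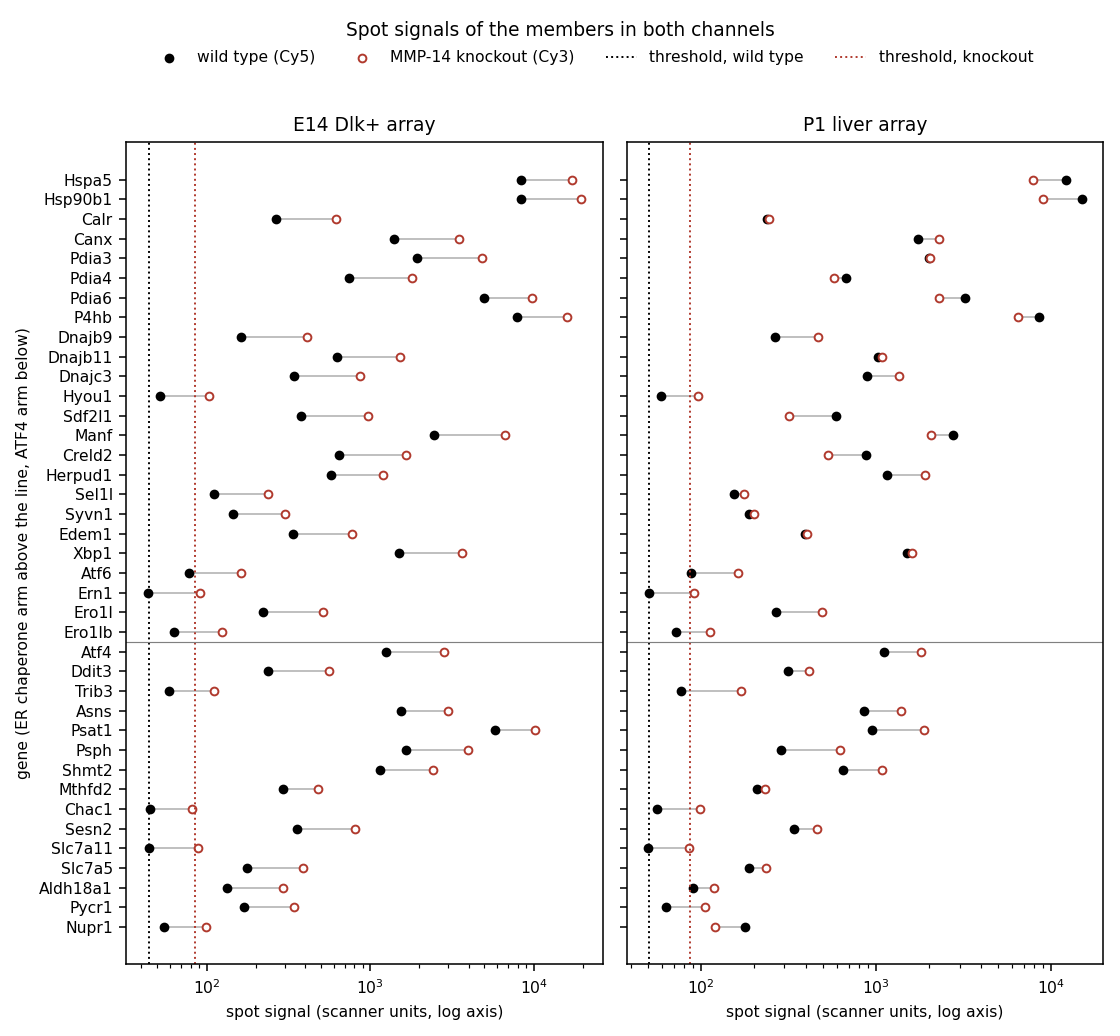
Spot signals of the 39 measured members on a log axis, in the wild-type (filled) and knockout (open) channels of each array, with the blank-spot threshold of each channel as a dotted line. On the E14 array every knockout reading lies to the right of its wild-type reading; on the P1 array 8 of the 24 ER chaperone genes and 1 gene of the ATF4 arm, Nupr1, have the knockout reading on the left.

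Part of this pattern was visible in the scanner readings before any scaling. On the P1 array 8 of the 24 members (33.3%) had a lower reading in the knockout than in the wild-type channel, namely Hspa5, Hsp90b1, Pdia4, Pdia6, P4hb, Sdf2l1, Manf and Creld2. Of all detectable genes 4.12% did so. Of the 23 detectable members 0 did so on the E14 array, against 0.0472% of all genes.

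The Hsp70 and Hsp90 system of the ER had its main chaperones among the lower genes. Hspa5 encodes BiP, the Hsp70 chaperone that binds unfolded chains and holds the stress sensors inactive. Its P1 readings were 12164 and 7834, a log2 ratio of -1.38 (2.60-fold lower). Hsp90b1, which encodes the Hsp90 chaperone GRP94, read 14903 and 8962, with a ratio of -1.49. Sdf2l1 encodes a small partner of BiP in a complex with DNAJB11. It read 588 and 318, at -1.47. These 3 genes had the lowest ratios of the arm after loess. The authors' deposited table gives them as -1.08, -1.18 and -1.64, and there, as under median centring, Creld2 lay below Hspa5 and Hsp90b1.

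The BiP cochaperone genes did not share these values. Dnajb11 encodes the J protein ERdj3, which passes clients to BiP. It read 1020 and 1081, a ratio of -0.54. Dnajc3, which encodes the inhibitor protein p58IPK, read 883 and 1356, at 0.00. Dnajb9 encodes ERdj4, which recruits BiP to the sensor IRE1. It read 264 and 468, at 0.30. So none of the 3 J protein genes passed the 1.5-fold threshold after loess, and Dnajb9 lay on the other side of 0. Dnajb11 passed it at -0.71 with the local background in normexp and at -0.82 with it subtracted, and stood at -0.11 under median centring. Hyou1, the large Hsp70-like exchange factor of BiP, was dim, with 59.5 and 96.2 against thresholds of 50.5 and 87.0, so its ratio of -0.03 is poorly measured.

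Several of these genes carry the ER stress response element (ERSE) in their promoters, the site bound by ATF6 together with NF-Y. The element was searched as CCAAT, 9 bases of any kind and CCACG, on both strands, in RefSeq windows of GRCm38.p6 that run from 250 bases before to 50 after each gene start. It was found in 9 of the 21 ER chaperone genes that had a window, and in 0.119% of all 32851 windows. A shorter element, ERSE-II, searched as ATTGG, any base and CCACG on both strands, was found in Herpud1 and Dnajb11 and in 0.0365% of all windows; no member held both. The stretches below are read 5′ to 3′ along the gene, with the fixed letters of each element in capitals. Hspa5, Hsp90b1, Pdia6 and Creld2 are shown because they carry the element and were at least 2-fold lower on the P1 array. Dnajc3, Ero1lb and Herpud1 are shown because they carry an element and stood near 0, Ero1lb from dim readings.
Hspa5 (chr2:34772010-34772058, plus strand): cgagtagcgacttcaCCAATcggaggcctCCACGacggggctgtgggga
Hsp90b1 (chr10:86705518-86705671, minus strand): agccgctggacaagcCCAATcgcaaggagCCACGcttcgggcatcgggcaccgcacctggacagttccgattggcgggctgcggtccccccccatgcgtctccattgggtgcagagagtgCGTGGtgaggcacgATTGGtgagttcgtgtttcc
Pdia6 (chr12:17266476-17266524, plus strand): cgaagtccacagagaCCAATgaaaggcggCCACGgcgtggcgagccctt
Creld2 (chr15:88819505-88819553, plus strand): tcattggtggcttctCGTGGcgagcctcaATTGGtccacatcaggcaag
Dnajc3 (chr14:118937812-118937860, plus strand): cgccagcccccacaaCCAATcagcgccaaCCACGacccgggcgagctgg
Ero1lb (chr13:12565667-12565715, plus strand): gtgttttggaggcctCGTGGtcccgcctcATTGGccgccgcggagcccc
Herpud1 (chr8:94386302-94386402, plus strand): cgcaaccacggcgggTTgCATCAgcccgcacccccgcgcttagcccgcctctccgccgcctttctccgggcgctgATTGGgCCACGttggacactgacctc

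Members with and without the element overlapped in their P1 ratio. The 9 genes with an ERSE had a median of -0.48, ranging from -1.49 to 0.02, and 4 of them were at least 1.5-fold lower, all 4 of them at least 2-fold. The 12 with a window but no ERSE had a median of -0.52, ranging from -1.47 to 0.34, and 4 of them were at least 1.5-fold lower, 2 of them at least 2-fold. Calr, Canx and Syvn1 carry the element as well. A match is a description of the sequence and no measure of binding, and exact letters miss sites that differ by a base.

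Disulphide isomerases followed the chaperones, while the oxidases that recharge them did not. P4hb, the gene of protein disulphide isomerase itself, read 8544 and 6462 on the P1 array, with a ratio of -1.13. Pdia6, whose product works with BiP and also damps the sensor IRE1, read 3220 and 2296, at -1.16. Pdia4 read 676 and 579, at -0.81. Pdia3, the isomerase that acts with the lectin chaperones, read 2018 and 2021, at -0.66. All 4 isomerase genes were thus at least 1.5-fold lower; under median centring only Pdia6 was, at -0.66, with Pdia3 at -0.17, Pdia4 at -0.46 and P4hb at -0.56. The oxidase gene Ero1l read 269 and 493, a ratio of 0.34. Ero1lb was dim, with 71.8 and 113 against thresholds of 50.5 and 87.0, and stood at 0.02, so the contrast rests mainly on Ero1l.

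The lectin chaperones, which bind sugar-tagged chains, had smaller ratios. Calr, encoding the soluble calreticulin, read 238 and 246 on the P1 array, at -0.48. Canx, encoding the membrane-bound calnexin, read 1734 and 2303, at -0.25. Neither reached 1.5-fold after loess. Calr passed it at -0.59 with the local background in normexp and at -0.88 with it subtracted; the authors' deposited table gives -0.66. Canx turned to 0.24 under median centring.

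The genes of both secreted stress proteins were at least 2-fold lower in the P1 knockout after loess, but not under median centring, with Creld2 at -0.96 and Manf at -0.58. Creld2 encodes a cysteine-rich ER protein released under stress. It read 876 and 531, at -1.33. Manf, a neurotrophic factor that stabilises BiP with its clients, read 2746 and 2073, at -1.07. The ratio of Manf rests on how the surroundings of the spot are treated: its local background was 1971 and 1204, and with that background used in normexp the ratio was -0.17. The authors' deposited table gives Manf as -0.87.

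**Figure D2:**
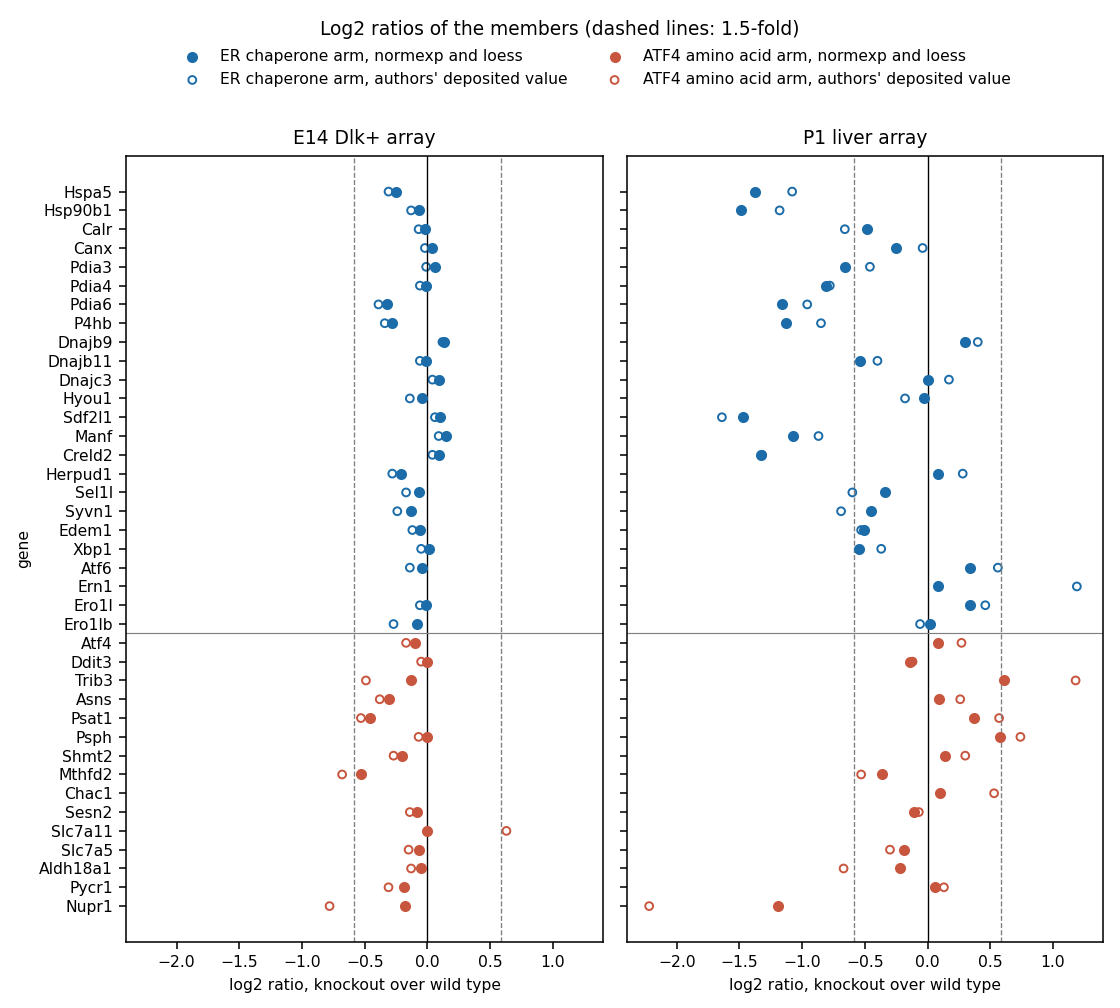
Log2 ratio of knockout over wild type for each member with both channels detectable, on the E14 Dlk+ array (left) and the P1 liver array (right), after normexp and loess (filled) and as deposited by the authors (open), with 1.5-fold as dashed lines. On the P1 array 9 filled points of the ER chaperone arm lie left of the lower line, and on the E14 array no filled point lies outside the lines.

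Genes that remove misfolded proteins from the ER gave no ratio past 1.5-fold after loess, though some passed it under other settings. Edem1, encoding a lectin-like factor that extracts misfolded glycoproteins, read 392 and 405 on the P1 array, at -0.51. Syvn1, the ubiquitin ligase HRD1, read 189 and 200, at -0.45, and its partner Sel1l read 154 and 177, at -0.34. Herpud1, a membrane scaffold of the same complex and a textbook stress-induced gene, read 1159 and 1908, at 0.08. The authors' deposited table gives Syvn1 at -0.69 and Sel1l at -0.60, both past 1.5-fold, and Edem1 was at -0.77 with the local background in normexp and at -1.01 with it subtracted. The promoter stretch of Herpud1 printed above holds an ERSE-II and, upstream of it, the capitals of a site of the ATF4 kind, described with the ATF4 arm.

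The regulators of the response were divided as well. Xbp1, whose messenger RNA is spliced by IRE1 to give an active transcription factor, read 1503 and 1606 on the P1 array, at -0.55; the probe does not tell spliced from unspliced messenger RNA as far as the files state. Xbp1 passed 1.5-fold at -0.65 with the local background in normexp, at -0.75 with it subtracted and at -0.59 with a normexp offset of 16. Under median centring Xbp1 stood at -0.09. Atf6 read 88.1 and 162, at 0.34. Ern1, the gene of IRE1, was read at 50.8 and 91.1, just above the thresholds, with a ratio of 0.08; the authors' deposited table gives 1.19.

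In the sorted E14 cells the ER chaperone arm stood close to 0. Of its 24 members 23 were detectable in both channels, 0 passed 1.5-fold in either direction, and the median was -0.02, with 15 below 0 (2 under median centring). All 12705 detectable genes had a median of 0.01; 0.307% of them were higher and 0.22% lower by 1.5-fold or more, so at this threshold 0 of 23 is near the background. The members ranged from -0.32 to 0.15. The lowest were Pdia6 (4997 and 9743, at -0.32), P4hb (7913 and 15876, at -0.28) and Hspa5 (8366 and 17135, at -0.25), each beyond the pooled probe SD of 0.12. Under median centring Pdia6, P4hb and Hspa5 stood at 0.42, 0.47 and 0.50. All genes then had a median of 0.28, and genes above the 75th percentile of intensity a median of 0.69. Pdia6, P4hb and Hspa5 lie at intensity percentiles of 99.2, 99.6 and 99.6. Each was thus above the median of all genes but below that of the bright genes. The highest members after loess were Manf, which read 2459 and 6639 (0.15), and Dnajb9, which read 162 and 413 (0.13).

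Hsp90b1 read 8401 and 19538 on the E14 array, at -0.07. Creld2 read 641 and 1652, at 0.09, and Sdf2l1 read 377 and 972, at 0.10. These 3 genes were among the lowest of the P1 array and lay within the probe SD of 0 in the sorted cells after loess. Under median centring their E14 values were 0.68, 0.79 and 0.76. Herpud1 read 579 and 1206, at -0.21. Its local background was high, at 515 and 820, and the ratio turned to 1.05 with that background used in normexp and to 1.45 with it subtracted. Ern1 read 43.9, below the wild-type threshold, and 91.1, just above the knockout threshold, so no ratio is given for it.

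The ATF4 amino acid arm gave a different picture on both arrays. In the sorted E14 cells all 14 members detectable in both channels had a ratio at or below 0, with a median of -0.12, where 5960 of 12705 genes were below 0. Under median centring 11 of the 14 were above 0, with a median of 0.40 where all genes had 0.28. None reached 1.5-fold after loess. The authors' deposited table has all but 1 of the 14 below 0, with 2 lower by 1.5-fold or more (1.22% of all genes) and 1 higher (5.38%). That exception, Slc7a11 at 0.63, was read at 44.4 and 89.0, just above the thresholds of 44.3 and 85.1. In the P1 liver the median was 0.07, with 8 of 14 members above 0 (10 under median centring). Trib3 alone was higher and Nupr1 alone lower by 1.5-fold or more, against 2.84% and 4.12% of all genes.

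The serine and one-carbon enzymes held the lowest E14 ratios of the arm. Mthfd2, a mitochondrial folate enzyme, read 295 and 481 on the E14 array, at -0.53. Psat1, the aminotransferase of serine synthesis, read 5774 and 10215, at -0.46. Shmt2, which moves the one-carbon unit from serine to folate in mitochondria, read 1145 and 2410, at -0.20. Psph, the last enzyme of serine synthesis, read 1648 and 3982, at -0.00. On the P1 array Psph was among the higher members, with readings of 288 and 624 and a ratio of 0.58. Psat1 was at 945.3 and 1889 there (0.37), Shmt2 at 651 and 1087 (0.14), and Mthfd2 at 208 and 233 (-0.36). Mthfd2 was thus below 0 on both arrays, whereas Psat1 changed side. Shmt2 did so as well, but its P1 value lay within the probe SD of 0.22. It was -0.09 with the local background in normexp and -0.16 with it subtracted. Under median centring the E14 values of all these enzymes lay above 0.

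Asns, the asparagine synthetase gene and a standard ATF4 target, read 1539 and 3012 on the E14 array, at -0.31, and 853 and 1388 on the P1 array, at 0.09. The first enzyme of proline synthesis is encoded by Aldh18a1. It read 134 and 294 (-0.05) on the E14 and 90.3 and 119 (-0.22) on the P1 array. Pycr1, the last enzyme of that route, read 169 and 341 (-0.19), then 63.5 and 105 (0.06). No enzyme of asparagine or proline synthesis reached 1.5-fold on either array after loess; on the P1 array Aldh18a1 was at -0.86 with the local background subtracted and at -0.67 in the authors' deposited table.

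The transcription factor genes themselves had ratios close to 0. Atf4 read 1258 and 2840 on the E14 array, at -0.10, and 1111 and 1818 on the P1 array, at 0.08. ATF4 is controlled mainly at translation, so its messenger RNA is a weak guide to its activity. Ddit3, the gene of the stress factor CHOP, read 238 and 562 (-0.00), then 315 and 414 (-0.14). Slc7a5, a subunit of a leucine carrier, read 176 and 389 (-0.07), then 188 and 237 (-0.19). Slc7a11, the cystine carrier gene, was detectable in neither channel of the P1 array, at 50.1 and 85.3.

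The stress outputs lay far apart on the P1 array. Nupr1, a small chromatin-associated stress protein, read 178 and 120, at -1.19; the authors' deposited table gives -2.22. Trib3, a pseudokinase that dampens ATF4 and CHOP, read 76.6 and 170, at 0.61; the authors' deposited table gives 1.18. Both genes are dim, and their values vary with the background correction. Sesn2, an inhibitor of mTORC1, read 341 and 461, at -0.11. Chac1, which degrades glutathione, read 56.5 and 99.0, at 0.10. On the E14 array Nupr1 stood at -0.18, Trib3 at -0.13 and Sesn2 at -0.08, and Chac1 was detectable in the wild-type channel only (45.0, against 82.0 in the knockout), so no ratio is given for it.

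Sites of the ATF4 kind, the CARE element searched as TGATGNAA on both strands, were present in 6 of the 15 genes of this arm that had a window, in 1 of 21 of the ER arm and in 3.97% of all windows. They were found in Asns, Pycr1, Nupr1, Chac1, Slc7a11 and Trib3. Asns is printed as a standard target of ATF4, Pycr1 as an enzyme of proline synthesis and Nupr1 as the member of the arm with the lowest P1 ratio, with the fixed letters in capitals.
Asns (chr6:7693210-7693247, minus strand): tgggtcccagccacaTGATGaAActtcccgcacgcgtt
Pycr1 (chr11:120643829-120643866, minus strand): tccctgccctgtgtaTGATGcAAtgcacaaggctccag
Nupr1 (chr7:126625558-126625595, minus strand): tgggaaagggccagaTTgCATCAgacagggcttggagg

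On the P1 array these 3 genes stood at 0.09, 0.06 and -1.19, so members with such a site did not share a direction.

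**Figure D3:**
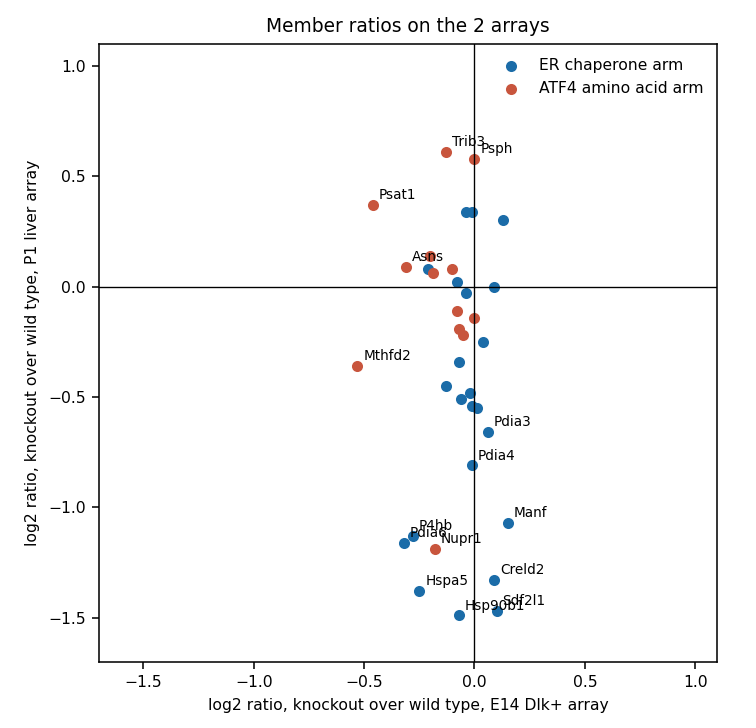
Log2 ratio of knockout over wild type on the E14 Dlk+ array (horizontal) against the P1 liver array (vertical), for the 36 members detectable in both channels of both arrays. The ER chaperone points spread downward to -1.49 on the P1 array while they stay between -0.32 and 0.15 on the E14 array, and the ATF4 points lie at or left of 0.

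Set side by side, most members of the ER chaperone arm had a lower ratio on the P1 array than on the E14 array. The P1 ratio minus the E14 ratio had a median of -0.47 over the 23 ER chaperone members detectable throughout, with 17 lower on the P1 array, and of 0.18 over 13 ATF4 members. Over all 12005 genes detectable throughout, the median was -0.00, with 6088 lower and 5917 higher on the P1 array. Loess centres each array near 0, so this all-gene median lies near 0 by construction. The size of the differences over all genes was not computed. Among the members the widest gaps were those of Sdf2l1 (-1.58), Creld2 (-1.42), Hsp90b1 (-1.41) and Manf (-1.23). With 1 array each, the difference between the arrays was not tested, and stage, sorting and tissue cannot be told apart.

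The levels of the same genes in the same dye were also set side by side, on log2 values after loess and Aquantile normalisation over both arrays. In the wild-type channel the ER chaperone arm had a median P1 minus E14 difference of -0.01, and in the knockout channel of -0.50; all genes had -0.06 in both. The members went both ways in the wild-type channel, where 13 of 23 were lower on the P1 array, from Pdia6 at -1.01 to Dnajc3 at 1.16; in the knockout channel 18 of 23 were lower. For Creld2 the wild-type difference was 0.22 and the knockout difference -1.19. For the ATF4 arm both medians were low, at -0.85 and -0.68. The lowest wild-type differences were those of Psat1 (-2.90), Psph (-2.87), Pycr1 (-1.78) and Asns (-1.13). Nupr1 had the highest wild-type difference of the arm, at 1.39, and a knockout difference of 0.38.

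Brightness matters for these values, since many members are bright. Under median centring the median of all genes was 0.28 on the E14 array and 0.05 on the P1 array, and that of genes above the 75th percentile of intensity was 0.69 and 0.41. The ER chaperone arm then stood at 0.59 and -0.20, and the ATF4 arm at 0.40 and 0.15. On the P1 array the ER arm median was thus below that of the bright genes under both scalings. Of the 3179 bright genes of the P1 array 7.58% were lower by 1.5-fold or more after loess, and 2.96% by 2-fold or more, a comparison chosen after the data were seen. Hspa5 kept -0.79, Hsp90b1 -0.89, Sdf2l1 -1.18 and Creld2 -0.96 under median centring. The balance of all calls at 1.5-fold shifted too: 361 higher and 524 lower genes on the P1 array after loess became 1295 and 320 under median centring, and 1510 and 1554 in the authors' deposited table. Under median centring 5 ER chaperone genes of the P1 array were lower by 1.5-fold or more (2.52% of all genes), 1 by 2-fold or more (0.92%), and 1 was higher (10.2%). The same scaling made 12 higher on the E14 array, where 24.8% of all genes were higher and 0.0394% lower.

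**Figure D4:**
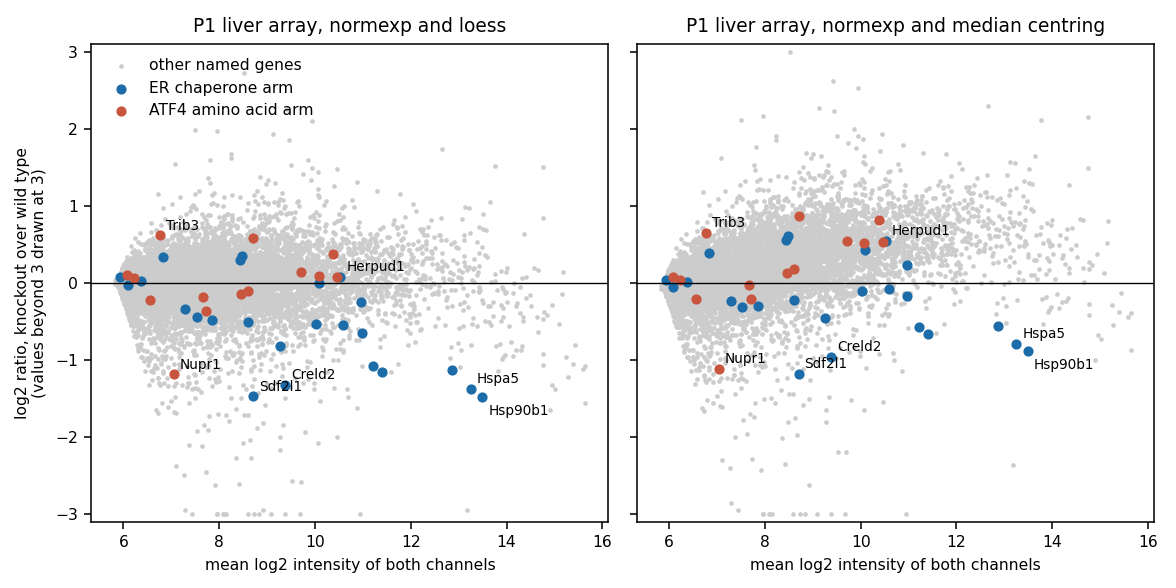
Log2 ratio of knockout over wild type on the P1 liver array against mean log2 intensity, after loess (left) and after median centring (right), with all other detectable named genes in grey. Hspa5 and Hsp90b1 lie at -1.38 and -1.49 on the left and at -0.79 and -0.89 on the right, below most grey points of like brightness, though single grey points lie as low or lower, and under median centring the bright part of the cloud sits above 0.

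Related genes of the ER and the amino acid response were read from separate lists. Translocon and N-glycosylation genes, which bring chains into the ER and tag them, had a P1 median of -0.28, with 21 of 26 below 0 and 2 at least 1.5-fold lower, Tram1 (1730 and 1653, at -0.71) and Sec61b (1711 and 1682, at -0.67). Of all P1 genes 4.12% were lower by that measure, and 7.58% of the bright genes, so 2 of 26 is near the background. Other ER foldases had a median of -0.16, with 14 of 19 below 0, Txndc5 at -0.53 and Dnajc10 at 0.62. The medians of these lists turned to 0.14 and 0.12 under median centring, so their direction depends on the scaling. Further genes of ER-associated degradation had a median of -0.06 (0.25 under median centring), with 1 of 15 past 1.5-fold, Derl3, at -1.24 from dim readings of 146 and 99.1. Stress sensors and regulators had a median of -0.03 (0.03 under median centring) and 0 of 19 past 1.5-fold in either direction, among them Atf5 (-0.50), Eif2ak4 (0.49) and Ppp1r15a (-0.39). After loess 0 genes of these 4 lists passed 1.5-fold on the E14 array, where 0.307% of all genes were higher and 0.22% lower. Their E14 medians lay between -0.02 and 0.03.

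On the side of the amino acid response, cytosolic aminoacyl-tRNA synthetases had a P1 median of 0.18, with 12 of 15 above 0, Yars at 0.69 and Iars at 0.39, and an E14 median of -0.05. Other amino acid transporters had a P1 median of 0.05, with Slc7a2, a carrier of arginine, at 1.62 (144 and 631) and Slc1a5, a glutamine carrier, at -0.75. Other serine, one-carbon and ATF4-related genes had a P1 median of 0.10. The mTORC1 inhibitor gene Ddit4 stood at 1.17, the aspartate aminotransferase gene Got1 at 0.98 and the lipoprotein receptor gene Vldlr at -1.29. Under median centring the 3 P1 medians were 0.56, 0.39 and 0.20. On the E14 array the medians of these last 2 lists were -0.11 and -0.02 after loess and 0.29 and 0.42 under median centring.

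**Figure D5:**
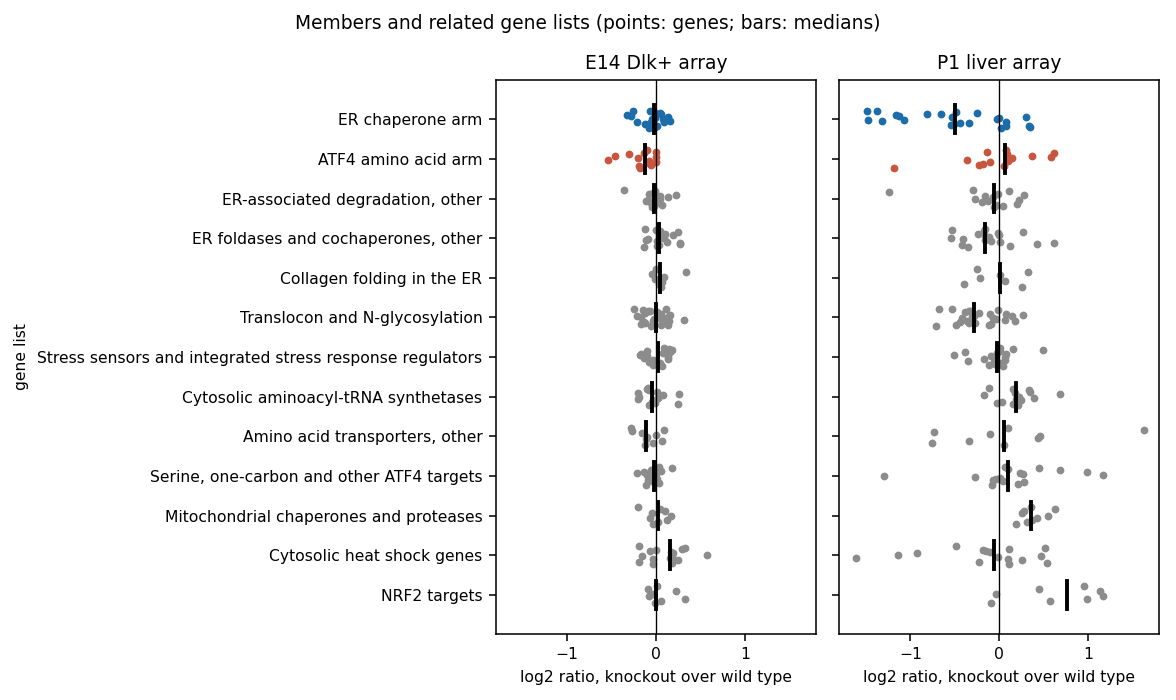
Log2 ratio of knockout over wild type for each detectable gene of the 2 arms and of 11 related lists, on the E14 Dlk+ array (left) and the P1 liver array (right), with list medians as bars. The ER chaperone arm has its median at -0.50 on the P1 array, the translocon list at -0.28 and the ATF4 arm at 0.07, while all E14 medians lie between -0.12 and 0.16.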

How the data were processed

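The deposited scanner files give the median spot intensity of each channel, fitted over 3 scanner gains, with a local background, per the file headers; the array maker's dye protocol was used, per the labels. The authors deposited a table of normalized log2 ratios, per the labels; its column medians were 7.21e-07 and -2.74e-05, and it equalled log2 of knockout over wild type after subtraction of the trimmed blank mean and median centring (correlation 1.0 on both arrays), so scale, centring and direction are known. Genome build and scanner software are not given in the sources used here.

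Log2 ratios were computed with limma 3.58.1 in R 4.3.3: normexp with an offset of 50 on the spot signal without local background, then loess within each array with control spots at weight 0. Blank spots were trimmed by 5 percent at each end, and 2736 blank spots per array set the thresholds. Spots with a quality flag were left out. Of 23473 probes, 16631 had 1 gene symbol, 0 had several and 6842 none; symbols were updated with the RefSeq table of GRCm38.p6. Probes of a gene were averaged. The normalisation was tested on simulated data with known ratios and a constant dye ratio. On the real arrays the dye ratio varied with brightness, so that test does not show how well loess suits them. The 10 alternatives were median centring, normexp with the local background, its subtraction, no background correction, an offset of 16, the authors' deposited values, detection in 1 channel, no detection filter, omission of whole-number readings and the brightest probe of a gene. Fold thresholds were 1.5 and 2. Named genes were all members, Mmp14, and of each other list at most the 3 with the largest absolute ratio on an array; Dlk1 and the undetectable lung markers, from the marker lists, were named after their values were seen. Of the members, 36 matched a promoter window. Members and lists were chosen with earlier results of these data known. Having 1 array per comparison limits how precise any value is.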

Additional observations from a re-analysis of the deposited data

Results flagged for a closer look

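For 3 members the ratio lay on opposite sides of 0 on the 2 arrays, in each case beyond the pooled SD between probes of a gene, 0.12 on the E14 array and 0.22 on the P1 array. The differences were not tested, since each array stands alone. Manf had a P1 minus E14 difference of -1.23, from 0.15 in the sorted cells to -1.07 in whole liver; with the local background in normexp the whole-liver value was -0.17, within the probe SD. Psat1 had a difference of 0.83, from -0.46 to 0.37; under median centring the values were 0.28 and 0.82, on the same side of 0. Trib3 had a difference of 0.75, from -0.13 to 0.61, on dim signals of 58.9 and 111 on the E14 array.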

How the results depend on the processing

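The 10 alternatives were run on each array; 4 of them, both detection filters, the omission of whole-number readings and the brightest probe, leave the ratio of a member as it is by construction, so 6 could move it. The 9 ER chaperone genes at least 1.5-fold lower on the P1 array stayed below 0 in all 6, and Hspa5, Hsp90b1, Pdia6, Sdf2l1 and Creld2 also stayed past 1.5-fold in all 6. No called member changed sign. Of the member values under these 6, 303 moved by less than the pooled probe SD and 147 by more.

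Under median centring the ER arm median became 0.59 (E14) and -0.20 (P1) and the ATF4 median 0.40 (E14). The ER arm then had 12 members at least 1.5-fold higher on the E14 array, and on the P1 array 5 lower at 1.5-fold, 1 lower at 2-fold and 1 higher at 1.5-fold; the ATF4 arm had 2 (E14) and 3 (P1) at least 1.5-fold higher. With the local background in normexp, and with it subtracted, 1 ER member was at least 1.5-fold higher on the E14 array, Herpud1. In normexp it left 0 ATF4 members past 1.5-fold in either direction, and 0 at least 2-fold lower, on the P1 array. Subtracted, it gave 3 ATF4 members lower at 1.5-fold and 1 at 2-fold (E14), and 4 lower at 1.5-fold (P1). An offset of 16 gave 1 ATF4 member lower (E14) and 2 higher (P1) at 1.5-fold, and no background correction gave 0 higher (P1). The share of all genes was not computed under the local background, offset and no-correction settings. Their member counts thus have no background to be set against and are description only. In the authors' deposited table the ATF4 arm had 2 members lower and 1 higher at 1.5-fold on the E14 array, against 1.22% and 5.38% of all genes. On the P1 array it had 2 lower and 2 higher of 14, near the 12.2% and 11.9% of all genes. The ER arm there had 1 higher at 1.5-fold, Ern1, against 11.9%, and 4 lower at 2-fold, against 5.03%. The cause of these changes was not tested. No paired analysis was possible because each comparison has 1 array. Dim members near the thresholds, such as Ern1, Hyou1, Chac1 and Slc7a11, have ratios that the signal cannot resolve.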

Other observations

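Chaperones outside the ER had other values on the P1 array than the ER chaperone arm, a difference that was not tested. Mitochondrial chaperone and protease genes were above 0 in 9 of 9 cases, with a median of 0.36, Hspa9 at 0.63 (1594 and 3899) and Clpx at 0.55, beside a list median of 0.02 on the E14 array and a median of -0.00 for all P1 genes. Targets of NRF2, the regulator of antioxidant genes, had a P1 median of 0.76, with 4 of 8 at least 1.5-fold higher, among them Srxn1 at 1.17 (349 and 1164) and Gclc at 1.14 (580 and 1951); on the E14 array their median was 0.01. Under median centring these P1 medians were 0.75 and 1.04, and the E14 medians 0.72 and 0.55. Cytosolic heat shock genes had a P1 median of -0.06 (0.26 under median centring), with 3 of 16 at least 1.5-fold lower, Cryab (-1.61), Hspb1 (-1.15) and Dnajb1 (-0.93), and an E14 median of 0.16, with Hspb1 at 0.58. Of all genes of the P1 array 2.84% were at least 1.5-fold higher and 4.12% lower after loess. Genes of collagen folding in the ER had medians of 0.05 on the E14 and 0.01 on the P1 array, where 0 of 7 passed 1.5-fold, while collagen genes of the stellate and fibroblast marker list were lower on the P1 array, Col3a1 at -1.93 and Col1a2 at -1.82.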
